A study of Mus musculus with 4 samples.

Results

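The NMDA receptor is a glutamate-gated cation channel of excitatory synapses, and its subunits are encoded by 7 genes, Grin1, Grin2a, Grin2b, Grin2c, Grin2d, Grin3a and Grin3b. The genes examined were those for which at least 1 row of the expression table carried the subunit's symbol as its single gene name in the platform annotation. By that rule 5 of the 7 had a row, each with 1 row: Grin2a, Grin2b, Grin2c, Grin2d and Grin3b. These are 5 of the 27090 singly named rows and of the 265511 rows in the table. Grin1 is the symbol of no row in the annotation used here, and Grin3a occurs only on 1 row that also carries the symbol Ppp3r2, so neither gene was read.

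Hippocampi of 4 untreated male C57BL/6 mice aged 3 months were profiled, 2 wildtype and 2 Malat1 knock-out, with 1 Affymetrix mouse exon array for each. Knock-out and wildtype animals were littermates, and no label says which animals formed a pair. How the knock-out allele was made is not stated in the labels. The comparison asks how loss of Malat1, a long noncoding RNA held in nuclear speckles, affects gene expression. Biotin-labelled RNA was prepared with a kit that primes at the poly(A) tail, so the part of a transcript that a row reports on is uncertain. Such a kit gives antisense RNA, whereas this array was built to detect targets of the sense strand, so the strand behind each signal is uncertain as well. All values are array signal on the log2 scale. The row of each subunit has its own probes, so the height of one subunit's signal says nothing about its abundance relative to another.

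Every NMDA receptor contains the GluN1 subunit, which binds the co-agonist glycine or D-serine, together with GluN2 subunits, which bind glutamate, or GluN3 subunits, which also bind glycine. In the forebrain GluN2B prevails early in life and GluN2A is added as circuits mature. GluN2C is best known from cerebellar granule neurons and GluN2D from early development and interneurons. Calcium that enters through the channel starts synaptic plasticity in the hippocampus.

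Malat1 signal was lower in both arrays labelled knock-out than in both wildtype arrays, though still above the median of 6.41 of the singly named rows. It was 11.19 and 11.25 in wildtype and 8.53 and 8.70 in knock-out hippocampus, a change of -2.61 ± 0.08 (SE), or 6.10-fold lower. In the fit over all 27090 singly named rows its adjusted p was 0.0720 (limma, Benjamini-Hochberg), and with only the brightest row of each gene above the 25th percentile of signal it was 0.00639. Knock-out replicate 2 stood apart from the other arrays. The median absolute difference over the singly named rows was 0.081 to 0.090 in its 3 pairings and 0.054 to 0.065 in the other 3.

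None of the 5 NMDA receptor subunits differed between genotypes by the test. With an adjusted p under 0.05 as the threshold, 0 of 5 subunits were called, beside 0% of all singly named rows (limma). At an unadjusted p under 0.05 the count was also 0 of 5, beside 4.22% of all singly named rows. The log2 fold changes, knock-out minus wildtype, ran from -0.013 to 0.086 with a median of -0.0025, and the median over all singly named rows was -0.0011. The widest change that any of the 5 intervals of 95% still held was 1.19-fold. In whole tissue, fewer cells that express a gene and less RNA per cell cannot be told apart.

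**Figure D1:**
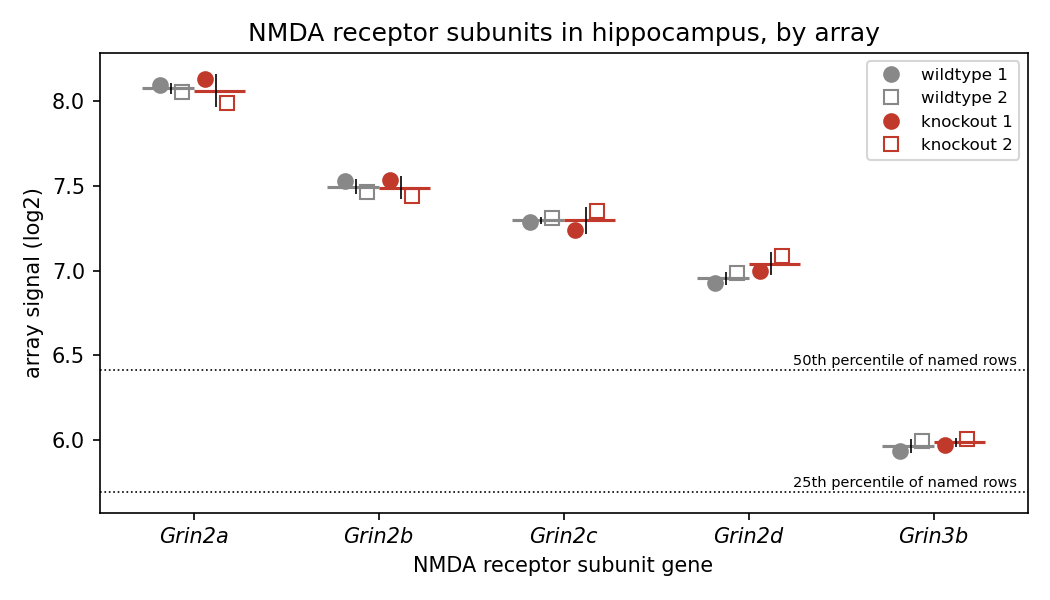
Log2 array signal (vertical axis) of the 5 subunit genes in each of the 4 arrays. Horizontal lines are group means and black bars are ± 1 SD (n = 2). The knock-out and wildtype means of each gene lie within 0.086 of each other, while Grin3b alone lies under the 50th percentile of singly named rows.

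Grin2a encodes GluN2A, the GluN2 subunit that prevails at mature forebrain synapses. Wildtype arrays read 8.10 and 8.05 and knock-out arrays 8.13 and 7.99, at the 90.7th percentile of all singly named rows. The knock-out arrays were the highest and the lowest of the 4, so the groups overlapped. The means were 8.08 ± 0.03 in wildtype and 8.06 ± 0.10 in knock-out hippocampus (SD, n = 2 each). The log2 fold change was -0.013 ± 0.070 (SE), with a 95% interval from 1.15-fold lower to 1.13-fold higher (limma, adjusted p = 1.00).

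Grin2b encodes GluN2B, whose long intracellular tail binds the kinase CaMKII. Its signal was 7.53 and 7.47 in wildtype and 7.54 and 7.44 in knock-out arrays, at the 82.4th percentile. As for Grin2a, knock-out replicate 1 was the highest array and knock-out replicate 2 the lowest. The log2 fold change was -0.0069 ± 0.063 (SE), with an interval from 1.13-fold lower to 1.12-fold higher (limma, adjusted p = 1.00).

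Grin2c encodes GluN2C, which forms channels with weak magnesium block. Its signal was 7.29 and 7.31 in wildtype and 7.24 and 7.35 in knock-out arrays, at the 77.9th percentile. The knock-out arrays again lay on both sides of the wildtype arrays, here with replicate 2 the highest. The log2 fold change of -0.0025 ± 0.062 (SE) was the closest to 0 of the 5, with an interval from 1.13-fold lower to 1.12-fold higher (limma, adjusted p = 1.00).

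Grin2d encodes GluN2D, which gives slowly closing channels. Its signal was 6.93 and 6.98 in wildtype and 6.996 and 7.09 in knock-out arrays, at the 69.8th percentile. Both knock-out arrays lay above both wildtype arrays, as they did for 15.2% of all singly named rows. None of the other subunits had groups that separated in either direction. The share of all rows that separate in either direction, which would be larger, was not counted. The means were 6.96 ± 0.04 and 7.04 ± 0.07 (SD, n = 2 each), and the gap between the nearest arrays of the groups was smaller than the gap within either group. The log2 fold change was 0.086 ± 0.061 (SE), with an interval from 1.06-fold lower to 1.19-fold higher (limma, unadjusted p = 0.230, adjusted p = 1.00). Of all singly named rows 70.3% had a smaller absolute change. Without knock-out replicate 2 the value was 0.039, and without knock-out replicate 1 it was 0.13.

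Grin3b encodes GluN3B, known mainly from motor neurons. Its signal was 5.93 and 6.00 in wildtype and 5.97 and 6.01 in knock-out arrays, at the 34.6th percentile, so that of the 5 subunits it alone lay under the median of 6.41 of the singly named rows. The groups overlapped. The log2 fold change was 0.023 ± 0.055 (SE), with an interval from 1.09-fold lower to 1.13-fold higher (limma, adjusted p = 1.00). A filter at the 25th percentile of signal, 5.70, would have kept all 5 subunits, and one at the 50th percentile would have kept 4.

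**Figure D2:**
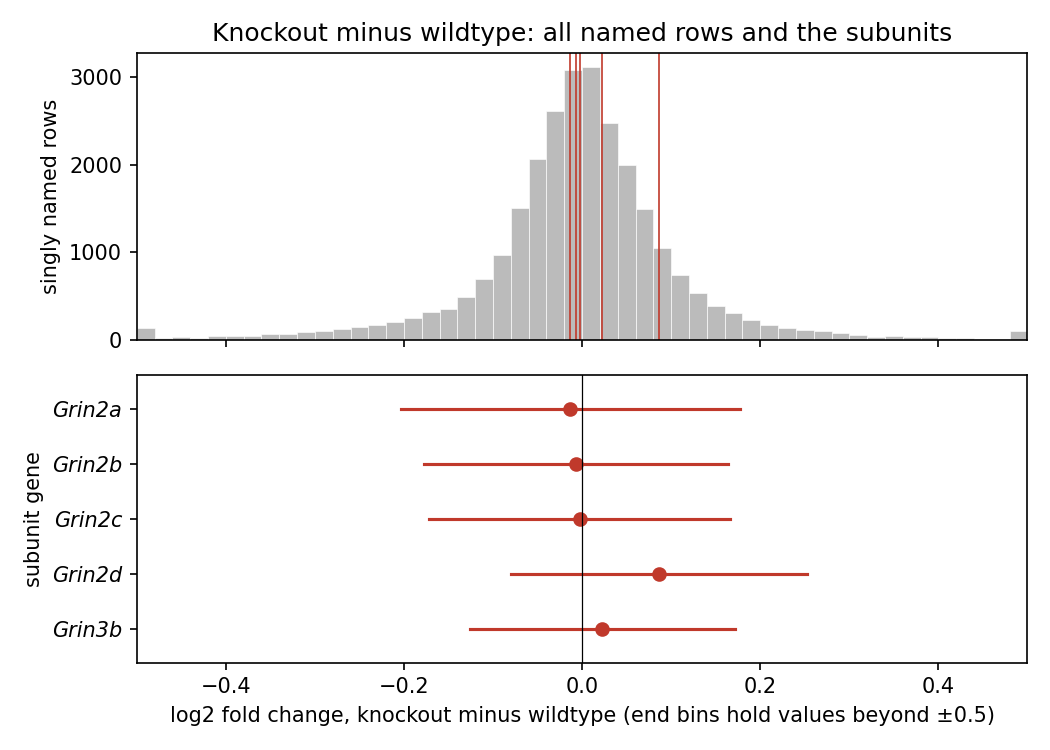
Upper panel, number of singly named rows by log2 fold change, knock-out minus wildtype, with the 5 subunits as vertical lines and values beyond 0.5 in the end bins. Lower panel, the 5 values with their 95% intervals, all of which span 0, with Grin2d at 0.086 the farthest from it.

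The RefSeq promoter table used here holds windows for 3 of the 5 subunits, from 250 bases before to 50 after the start of transcription. They are shown because factors of the Sp family, which bind the GC box GGGCGG, are among the regulators measured below. In each line the sequence runs 5′ to 3′ on the gene's strand (RefSeq, GRCm38.p6), and capitals mark each GC box on either strand (GGGCGG or CCGCCC).

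Grin2c (chr11:115267194-115267493, minus strand): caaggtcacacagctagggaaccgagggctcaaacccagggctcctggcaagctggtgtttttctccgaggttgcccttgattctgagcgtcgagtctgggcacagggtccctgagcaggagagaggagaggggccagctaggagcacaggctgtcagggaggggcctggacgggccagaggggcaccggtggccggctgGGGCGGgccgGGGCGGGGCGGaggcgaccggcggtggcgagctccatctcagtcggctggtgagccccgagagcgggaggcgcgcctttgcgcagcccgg

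Grin2d (chr7:45866632-45866931, minus strand): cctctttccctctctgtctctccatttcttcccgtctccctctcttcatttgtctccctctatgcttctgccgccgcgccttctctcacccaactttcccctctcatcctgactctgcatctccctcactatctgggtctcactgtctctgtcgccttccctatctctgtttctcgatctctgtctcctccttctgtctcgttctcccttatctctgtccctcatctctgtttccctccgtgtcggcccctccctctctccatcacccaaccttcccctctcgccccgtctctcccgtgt

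Grin3b (chr10:79970474-79970773, plus strand): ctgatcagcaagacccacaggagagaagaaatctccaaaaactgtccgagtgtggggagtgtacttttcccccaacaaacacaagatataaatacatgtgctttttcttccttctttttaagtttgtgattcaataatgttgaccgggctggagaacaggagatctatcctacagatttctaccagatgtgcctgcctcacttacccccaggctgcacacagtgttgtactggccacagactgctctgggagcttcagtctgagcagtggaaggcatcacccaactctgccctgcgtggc

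The Grin2c window has 3 GC boxes, a pair of which overlap, and 70.0% of its bases are G or C. The Grin2d window has none at 56.0% G or C, and the Grin3b window has none at 48.3%. Of the 32851 windows counted, 35.7% have at least 1 GC box and 10.7% have 3 or more. The windows of 1 chromosome, which holds none of the 3 genes shown, were left out of the count. The letters describe the windows, and whether any box is bound was not measured.

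For each of the 5 subunits, at least 1 genotype had a gap between its own arrays that exceeded the difference between the genotype means. The range over the 4 arrays was 0.073 for Grin3b, 0.096 for Grin2b, 0.11 for Grin2c, 0.14 for Grin2a and 0.16 for Grin2d, the last a 1.12-fold difference between the highest and the lowest array. Knock-out replicate 2 was the highest or the lowest array for all 5 subunits, as it was for 63.6% of all singly named rows. For Grin2a, Grin2b and Grin2c the knock-out arrays enclosed both wildtype arrays, a pattern seen in 21.3% of all singly named rows. The direction of those 3 values therefore depended on the array. Without knock-out replicate 2 Grin2a stood at 0.057, Grin2b at 0.041 and Grin2c at -0.057. Without knock-out replicate 1 they stood at -0.083, -0.055 and 0.052. These fits leave 1 array in a group, whose spread is taken from the other genotype, so their p-values say little.

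**Figure D3:**
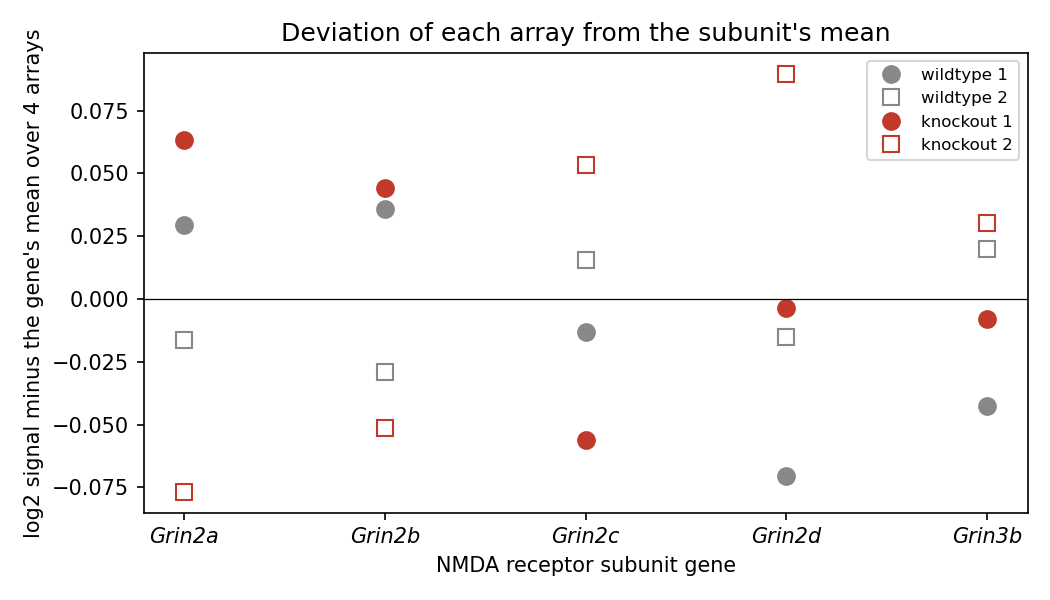
Log2 signal of each array minus the subunit's mean over the 4 arrays (vertical axis), for the 5 subunits. Knock-out replicate 2 is the lowest array for Grin2a and Grin2b and the highest for Grin2c, Grin2d and Grin3b.

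The ratio of GluN2A to GluN2B shifts with age, so Grin2a was set against Grin2b within each array, which removes any scaling of the whole array. The log2 difference, Grin2a minus Grin2b, was 0.57 and 0.59 in wildtype and 0.60 and 0.55 in knock-out arrays. The knock-out arrays lay on both sides of the wildtype arrays. The difference between genotypes was -0.0064, from 0.579 ± 0.013 in wildtype to 0.573 ± 0.032 in knock-out hippocampus (SD, n = 2 each). An exact two-sided permutation test gave p = 1, and 2 against 2 arrays cannot give a p below 0.333. Grin2a and Grin2b thus differed from array to array in the same direction, and their difference had a smaller range than either gene.

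Of the 10 such differences between pairs of the 5 subunits, 8 had overlapping groups. The others both involved Grin2d, whose own groups did not overlap, so they add nothing independent of that row. How often the groups separate for pairs of other rows was not counted. Grin2d minus Grin3b was 0.994 and 0.987 in wildtype and 1.03 and 1.08 in knock-out arrays. Grin2c minus Grin2d was 0.356 and 0.330 in wildtype and 0.247 and 0.263 in knock-out arrays, which put Grin2d 0.088 higher against Grin2c in the knock-out on the log2 scale. These pairs were chosen after their values were seen and carry no test.

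Among the genes that act around the receptor, 124 distinct genes in 7 lists had a singly named row, and each was read at its brightest row. None was called at an adjusted p under 0.05, beside 0% of all 20707 genes (limma). At an unadjusted p under 0.05 there was 1 gene, 0.806% of the 124, beside 3.09% of all genes at their brightest row. A change smaller than 1.2-fold was seen in 123 of the 124, and 59 lay below 0 and 65 above it. Of the 21 genes named by size below, leaving out 1 array moved 17 by over 1.5 times, and 5 of those changed sign (Nos1, Grik4, Kif17, Ptbp1 and Hnrnph2).

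Co-agonist supply had 19 measured genes, 12 above 0 and 7 below, with a median log2 fold change of 0.0067. Srr, the serine racemase that makes D-serine, lay farthest from 0. Its signal was 9.63 and 9.46 in wildtype and 9.40 and 9.34 in knock-out arrays. The groups did not overlap, but the share of all rows with both knock-out arrays below both wildtype arrays was not counted. The change of Srr was -0.17 (95% interval -0.38 to 0.045; limma, adjusted p = 1.00). It was -0.084 without wildtype replicate 1 and -0.26 without wildtype replicate 2. A second, dimmer Srr row stood at -0.11. The glutamine transporter gene Slc38a1 stood at -0.16, where both knock-out arrays lay below wildtype, replicate 2 the farthest (7.87 and 7.85 against 7.81 and 7.60). It was -0.047 without knock-out replicate 2, and the other 4 Slc38a1 rows stood between -0.15 and 0.073. The neuronal glycine transporter gene Slc6a5 stood at 0.061 with signal near the 25th percentile. The glial glycine transporter gene Slc6a9 stood at 0.023 and Phgdh, which begins serine synthesis, at 0.00059; these last genes were added to the named ones after their values were seen.

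Traffic and anchoring of the receptor had 23 measured genes, 8 above 0 and 15 below, with a median of -0.016. The scaffold-associated protein gene Dlgap1 stood at -0.14, the reelin receptor gene Lrp8 at 0.12 and Kif17, the kinesin that carries GluN2B along dendrites, at -0.085. Kif17 signal was 11.23 and 10.81 in wildtype and 11.16 and 10.71 in knock-out arrays, so each genotype spanned over 0.4 and the groups overlapped. The other rows of Dlgap1 and Kif17 stood at -0.015 and -0.033, and the other 2 Lrp8 rows at -0.021 and 0.045. Dlg4, which encodes the receptor anchor PSD-95, stood at 0.032 and Dlg3, which encodes SAP102, at -0.026; both were added after their values were seen.

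Kinases and phosphatases acting on the subunits had 23 measured genes, 11 above 0 and 12 below, with a median of -0.0024. The largest changes were those of the receptor phosphatase gene Ptpra, which encodes an activator of Src kinases (0.13), the anchoring protein gene Akap5 (0.059) and Camk2d (-0.058). The other 2 Ptpra rows stood at -0.17 and -0.026, opposite to the brightest, and the other Akap5 row at -0.025. Calcium-dependent signalling near the channel had 11 measured genes of 18, 6 above 0 and 5 below, with a median of 0.0041. There the calpain gene Capn1 stood at 0.14, the neuronal nitric oxide synthase gene Nos1 at 0.056 and the Rac exchange factor gene Tiam1 at -0.051. The other Nos1 row stood at -0.030, and the brightest at -0.033 without wildtype replicate 1.

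Signalling to the nucleus and activity genes had 18 measured genes, 16 above 0 and 2 below, with a median of 0.045 beside 0.0017 over all genes, of which 51.1% lay above 0. The median was 0.019 without wildtype replicate 1 and 0.072 without wildtype replicate 2, and the mean signal of the list was 7.53 in wildtype replicate 1 against 7.60, 7.63 and 7.62 in the others. The activity-regulated transcription factor gene Npas4 was the gene with the unadjusted p under 0.05. Its signal was 7.42 and 7.66 in wildtype and 7.80 and 8.01 in knock-out arrays. Of all singly named rows 15.2% likewise had both knock-out arrays above both wildtype arrays. The log2 fold change of Npas4 was 0.36 (95% interval 0.043 to 0.69; limma, unadjusted p = 0.0340, adjusted p = 1.00). The calcium-dependent kinase gene Camk4 stood at -0.26, with 8.21 and 8.52 in wildtype and 8.13 and 8.07 in knock-out arrays. It was -0.42 without wildtype replicate 1 and -0.10 without wildtype replicate 2. The transcription factor gene Mef2c stood at 0.25, and at 0.13 without knock-out replicate 1. The other Camk4 row stood at -0.0037 and the other 3 Mef2c rows between -0.16 and 0.14.

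Transcription and RNA regulators of subunit genes had 20 measured genes, 8 above 0 and 12 below, with a median of -0.017. The splicing regulator genes Hnrnph2 (-0.16) and Ptbp1 (-0.12) and the transcription factor gene Mef2a (-0.11) lay farthest from 0, and in each of the 3 knock-out replicate 2 was the lowest array. Without it Hnrnph2 stood at 0.053, Ptbp1 at 0.094 and Mef2a at -0.021. The other 2 Ptbp1 rows stood at 0.016 and 0.042, and the other 3 Hnrnph2 rows between -0.26 and -0.036. The Sp factors, which bind GC boxes such as those of the Grin2c window, were added after their values were seen: Sp1 stood at 0.020, Sp3 at 0.030 and Sp4 at -0.023. Rest, the repressor of neuronal genes in other tissues, stood at -0.017.

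Other ionotropic glutamate receptors had 10 measured genes, 4 above 0 and 6 below, with a median of -0.019. The kainate receptor genes Grik4 (-0.13) and Grik1 (-0.056) and the AMPA receptor gene Gria4 (-0.060) lay farthest from 0. Grik4 signal was 8.10 and 7.95 in wildtype and 8.09 and 7.71 in knock-out arrays, so knock-out replicate 2 alone was low. The other Grik4 row stood at -0.0033. The median of these receptors was 0.060 without knock-out replicate 2 and -0.093 without knock-out replicate 1. The median of the regulators was 0.034 and -0.085, and that of traffic and anchoring 0.020 and -0.064. For the nuclear list it was 0.046 and 0.052, and there a wildtype array mattered instead, as given above.

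**Figure D4:**
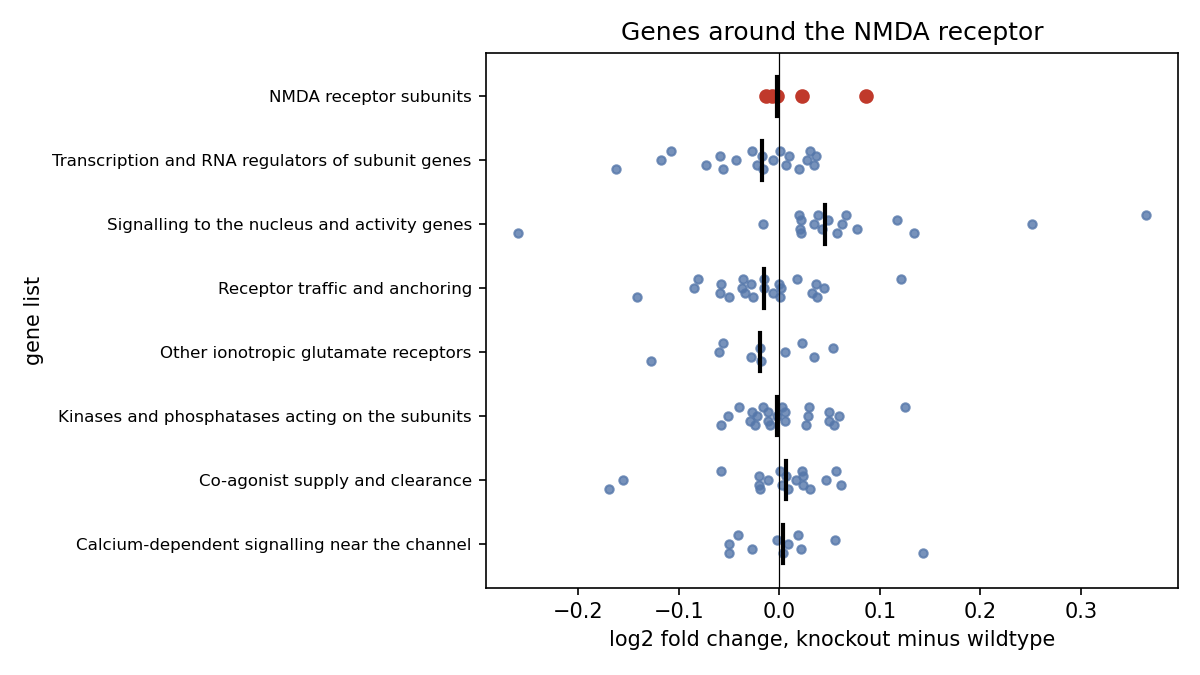
Log2 fold changes, knock-out minus wildtype (horizontal axis), of the measured genes in 7 lists around the receptor (blue) and of the 5 subunits (red), with list medians as black bars. The list medians lie between -0.019 and 0.045, and Npas4 at 0.36 and Camk4 at -0.26 are the outermost points.

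Markers of the tissue were read against the 25th percentile of singly named rows, above which 75% of those rows lie by definition. Above it lay 5 of 5 neuron markers, 4 of 4 dentate granule neuron markers, 4 of 4 CA1 markers, 3 of 4 CA2 and CA3 markers and 5 of 5 interneuron markers. The study design speaks of RNA from neurons. Also above the level lay 4 of 5 astrocyte, 3 of 3 oligodendrocyte, 4 of 4 oligodendrocyte precursor, 4 of 4 microglial and 4 of 4 endothelial markers. So did 4 of 4 thalamus, 4 of 4 choroid plexus and 3 of 4 cerebellar granule neuron markers. This level therefore tells neither hippocampus from its neighbours nor which cell types gave the RNA.

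Knock-out replicate 2, in which Grin2a and Grin2b were lowest, had the lowest mean of the 4 arrays for the neuron, dentate, CA2 and CA3, and interneuron lists. The same held for the oligodendrocyte and endothelial lists. Its mean was the highest for the CA1, oligodendrocyte precursor, thalamus and cerebellar granule neuron lists. Single markers of the low lists differed, and Slc17a7, Pvalb and Iyd were highest in this array. The mean over the CA2 and CA3 markers was 7.05 there, against 7.19, 7.17 and 7.20 in wildtype replicates 1 and 2 and knock-out replicate 1. The mean over the neuron markers was 8.85, against 8.89, 8.93 and 8.93, that over the dentate markers 8.22, against 8.28, 8.34 and 8.29, and that over the interneuron markers 8.25, against 8.29, 8.31 and 8.26. The mean over the CA1 markers was 7.048, against 7.004, 6.998 and 7.035. The mean over the astrocyte markers was 7.19, within the range of 7.16 to 7.25 of the others. That over the endothelial markers was 6.79, against 6.89, 6.84 and 6.85, and that over the oligodendrocyte markers 7.556, against 7.733, 7.567 and 7.574. Between genotypes 2 markers had an unadjusted limma p under 0.05, 1 of the 5 interneuron and 1 of the 4 choroid plexus markers. No marker of the other lists had one. Over all genes at their brightest row the share with such a p was 3.09%. No marker was called at an adjusted p under 0.05, beside 0% of all genes. Gad2, which encodes a GABA synthetic enzyme of interneurons, read 10.187 and 10.185 in wildtype and 9.995 and 10.04 in knock-out arrays (-0.17, unadjusted p = 0.0286, adjusted p = 1.00). The choroid plexus gene Ttr read 6.09 and 6.58 against 5.73 and 5.86 (-0.54, unadjusted p = 0.0390, adjusted p = 1.00). Other markers of those lists did not all lie below 0. Of the 5 interneuron markers 3 lay below 0 and 2 above, Gad1 at 0.00025 and Pvalb at 0.052. Of the 4 choroid plexus markers 3 lay below 0 and 1 above, Folr1 at 0.19. The part of these marker differences in the subunit values was not tested.

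The genes with the pattern over the 4 arrays most like that of Grin2a were Arhgap42, Zfp804a and Rsrc2, with root mean square differences of 0.0023, 0.0027 and 0.0036 on the log2 scale once each gene's mean was subtracted. They were the nearest of 12820 genes whose range was at least 80% of that of Grin2a. For Grin2b they were Gm16387, Lyrm4 and Gpc5, with differences of 0.0030, 0.0030 and 0.0043 among 16821 genes. With 4 arrays and so many genes, likeness of this kind describes these arrays only.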

How the data were processed

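The authors deposited log2 expression values, 1 column per array, and the unit was read from the range of the values. Per the submitters' processing notes the genome build was mm9. How the authors corrected background, normalized and summarized the deposited values, and with which software, is not given in the sources used. Gene names came from GEO's platform annotation, which gave 1 symbol to 27090 rows, several to 2498 and none to 235923.

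Deposited values were used unchanged. Knock-out and wildtype were compared over all 27090 singly named rows, with no filter on low signal, in limma 3.58.1 (R 4.3.3; lmFit, eBayes, two-sided, Benjamini-Hochberg, threshold 0.05), with 2 residual degrees of freedom per row and a prior worth 2.26. Precision is limited by the 4 arrays, and 95% intervals had a median half-width of 0.18. The fit was tested on simulated data in which every planted change was larger than that of any subunit, so changes of the subunits' size were not covered.

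Named genes are the subunits, Malat1, the 3 list genes with the largest absolute change in each list, and the 3 most like Grin2a and Grin2b; Grin1, planned beside them, had no row. Older symbols were updated from RefSeq synonyms. Members and lists were chosen with earlier results of these data known. Labels call the arrays biological replicates.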

Additional observations from a re-analysis of the deposited data

How the results depend on the processing

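No subunit and no gene of the 7 lists was called under any of the 13 alternatives, and the smallest adjusted p of a subunit under them was 0.616. The alternatives were quantile normalization, centring, filters at the 25th and 50th percentile, 1 row per gene, the mean over rows, an intensity trend, all rows of the table, the replicate block and leaving out each array. The filter at the 50th percentile gave no value for Grin3b. Grin2d ran from 0.039 to 0.13 and stayed above 0, which most of the 13 could not have changed. Because its groups did not overlap, leaving out 1 array could not reverse its sign. The filters, row choices, intensity trend, all rows and replicate block could not move its value of 0.086. Of the rest, quantile normalization gave 0.083 and centring 0.071. Fits with 1 array left out take the spread of the lone array from the other genotype. In them Grin2a ran from -0.083 to 0.057, Grin2b from -0.055 to 0.041, Grin2c from -0.057 to 0.052 and Grin3b from -0.0085 to 0.054, so each of these changed sign. The genotype difference in Grin2a minus Grin2b also changed sign, from -0.029 to 0.016 over the 13 alternatives. With quantile normalization it was 0.0068.

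Malat1 was called, as the only row (1), under centring (-2.62, adjusted p = 0.0198), both filters (-2.61, adjusted p = 0.0364 and 0.0110), the brightest row per gene (-2.61, adjusted p = 0.00639) and the mean over rows (-2.61, adjusted p = 0.00451). Filters and 1 row per gene test fewer rows. Rows with an unadjusted p under 0.05 numbered 1144, against 520 with the filter at the 50th percentile, 617 with the brightest row per gene, 15636 over all rows of the table and 957 to 2175 with 1 array left out, the most without knock-out replicate 1. With the replicate block Malat1 stood at -2.61 (adjusted p = 0.194) and 1507 rows had an unadjusted p under 0.05. Deviations of same-numbered arrays correlated at 0.054 over rows, and no label makes the numbers pairs. All 5 subunits differed the same way between replicates 1 and 2 in both genotypes, as did 50.4% of all singly named rows.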

Other observations

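The 1 row that carries both Grin3a and Ppp3r2 read 6.02 and 6.07 (log2 signal) in wildtype and 6.01 and 5.98 in knock-out hippocampus, and it was not read as either gene. Grin1os, a long noncoding RNA that lies within the span of Grin1 in RefSeq (GRCm38.p6), had a singly named row. Its signal was 7.09 and 7.24 in wildtype and 7.24 and 7.16 in knock-out arrays, a change of 0.039 (95% interval -0.17 to 0.24; limma, adjusted p = 1.00). Whether signal from Grin1 contributes to that row was not tested, and the row was not taken as a measure of Grin1.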
